A study of Arabidopsis thaliana with 3 samples.

Results

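The genes described here encode the replicative helicase of Arabidopsis thaliana, the sliding clamp of its DNA polymerases and the factors that load the helicase onto DNA. They are the 6 helicase subunits MCM2, MCM3, MCM4, MCM5, MCM6 and MCM7, the clamp genes PCNA1 and PCNA2, and the loader genes CDC6 and CDT1A. They were chosen by locus, and all 10 were found among the 27374 genes listed in the files. RNA was measured in 3 libraries of whole wild-type Col-0 seedlings, 9 days old, from plates kept at 23 °C in days of 16 h light and 8 h dark. The libraries form 1 group, with no mutant or treated sample, so genes were compared with each other within the seedlings. Total RNA without its ribosomal part went into directional libraries. Values are FPKM, fragment numbers divided by transcript length and by sequencing depth, summed over the transcripts of a gene. This allows for transcript length, but any other bias of a gene that repeats in every library stays in its value and was not tested.

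Before DNA is copied, the origin recognition complex, CDC6 and CDT1 place rings of MCM2 to MCM7 on it, a step called licensing. Each ring holds a single copy of every subunit, and CDC45 and the GINS complex later turn it into the active helicase. PCNA is a ring of identical subunits that slides along DNA behind the fork and holds polymerases and other replication proteins there. In plants many genes of this machinery are known targets of E2F transcription factors, which the retinoblastoma-related protein RBR restrains. Their RNA is known from dividing cells of meristems and young leaves, but need not be limited to them.

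An E2F-type motif lay near the start of 5 of the 6 helicase genes, and of the sixth when the start of its measured transcript was used. The motif was any of the 8-letter words TTTCCCGC, TTTCGCGC, TTTGCCGC and TTTGGCGC, on either strand, in a window from 250 bases before a start to 50 bases after it, in RefSeq TAIR10.1. Measured from the first annotated base of each gene, 5 of the 10 genes held such a word (MCM2, MCM3, MCM4, MCM5 and MCM6), beside 1.76% of 27443 nuclear protein-coding genes. Measured from the start of the most abundant transcript, a window added after these results were seen, MCM7 joined them, which made 6 of 10 beside 1.81% of 26692 genes. The annotated span of MCM7 begins at base 900636 with transcript 2, listed at 0 FPKM in all libraries, while transcript 1 begins at base 901375. The windows are shown because they carry this shared feature, 5′ to 3′ on the strand of the gene, with the matched word in capitals:
MCM2, chr1:16970184-16970223, plus strand: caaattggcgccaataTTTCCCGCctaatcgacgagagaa
MCM3, chr5:18773853-18773892, minus strand: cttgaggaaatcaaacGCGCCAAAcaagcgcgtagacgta
MCM4, chr2:7130741-7130780, minus strand: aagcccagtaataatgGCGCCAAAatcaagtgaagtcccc
MCM5, chr2:3527496-3527535, minus strand: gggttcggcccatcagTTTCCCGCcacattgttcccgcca
MCM6, chr5:18010690-18010729, minus strand: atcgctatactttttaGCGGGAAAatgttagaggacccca
MCM7, chr4:901350-901389, plus strand: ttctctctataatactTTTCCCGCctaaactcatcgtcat

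The words began 9 (MCM7), 19 (MCM5), 35 (MCM4), 40 (MCM2), 46 (MCM6) and 173 (MCM3) bases before the start of the most abundant transcript. MCM2, MCM5, MCM6 and MCM7 carried TTTCCCGC, which was found in 0.798% of all gene-start windows, and MCM3 and MCM4 carried TTTGGCGC, found in 0.437%. In MCM3, MCM4 and MCM6 the word lay on the opposite strand, where it reads as GCGCCAAA or GCGGGAAA. None of the other 4 genes held an 8-letter match, which says only that these letters are not in that window.

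Shortened to 7 letters by leaving out the first T, a choice also made after these results were seen, the same 4 words were found in 8 of the 10 windows at the gene start, beside 3.63% of all genes. At the most abundant transcript they were found in 9 of 10, beside 3.72%. PCNA2 and CDT1A then had a match that began 8 and 7 bases before the start, and PCNA1 had a match just inside the transcript. CDC6 had none. Further matches of this shorter kind lay close to the longer word in MCM2 and MCM5, and between it and the start in MCM3. The matches of PCNA2 and CDT1A are shown because they lie next to the start, as that of MCM7 does, with the matched letters in capitals:
PCNA2, chr2:12651739-12651777, minus strand: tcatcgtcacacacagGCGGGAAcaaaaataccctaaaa
CDT1A, chr2:13328839-13328877, plus strand: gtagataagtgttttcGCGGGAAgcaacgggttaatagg

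**Figure D1:**
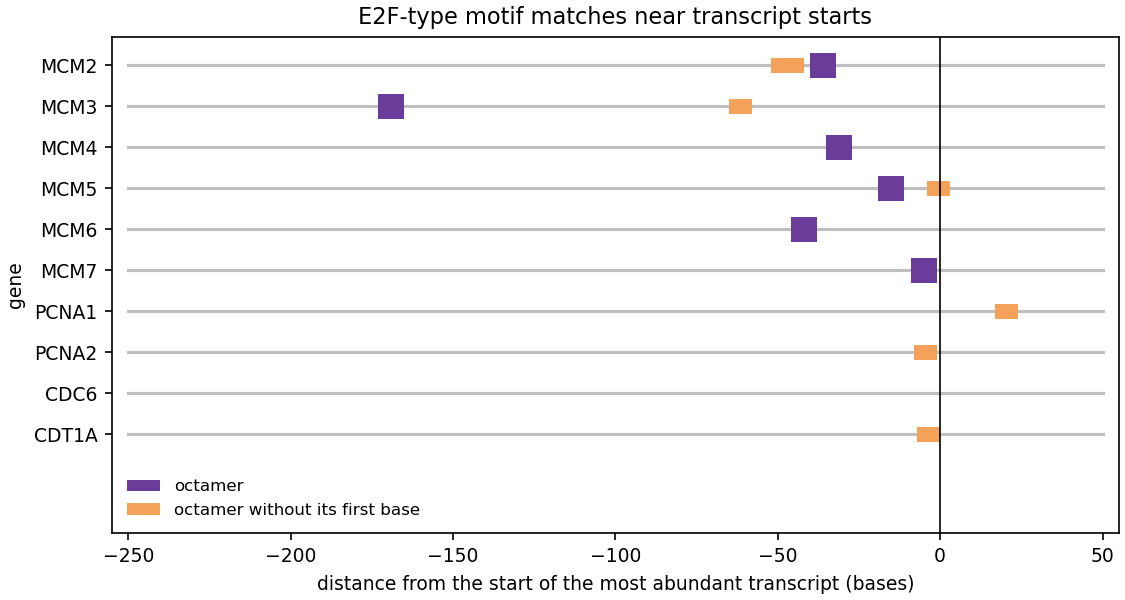
Matches of E2F-type words in the window from 250 bases before to 50 bases after the start of the most abundant transcript of each of the 10 genes; the x axis is the distance from that start in bases, purple bars are 8-letter matches and orange bars are matches without the leading T. Purple bars appear in the 6 MCM genes and in none of the other 4, CDC6 has no bar, and all matches but those of MCM3 lie within 52 bases of the start.

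Marker genes of both shoot and root were found, the root ones at unlike levels. The antenna gene CAB1 had 14284 FPKM and the root beta-glucosidase gene PYK10 1009 FPKM. The other root marker, PHT1;1, had only 9.87, 6.91 and 8.06 FPKM in libraries 1, 2 and 3. Of the shoot meristem markers, STM had 4.64 ± 0.385 FPKM (SD, n = 3) and KNAT1 5.29 ± 0.546, while WUS and CLV3 were listed at 0, as was the pollen gene VGD1. In a whole seedling, fewer cells that hold an RNA and less of that RNA per cell cannot be told apart. The number of reads per library is not stated. Steps among the low values gave estimates of 20.2, 19.4 and 20.8 megafragments for libraries 1, 2 and 3, but with a tolerance of 0.05 only 34.0% to 35.7% of those values came out whole (10% without steps), so whole reads were not recovered. No label states separate cultures for the libraries, so each SD and p-value measures the spread between these libraries only, which may be technical. A bias of a gene that repeats in every library does not enter them, so a call between genes can include such a bias.

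The helicase genes were expressed at unequal levels. Each had a mean under 9.16 FPKM, the median of nuclear genes averaging 1 FPKM or more. MCM7 was the most abundant subunit and MCM6 the least abundant in each of the 3 libraries, with the other 4 genes between them. MCM7, known in Arabidopsis as PROLIFERA, had 8.04, 8.45 and 8.92 FPKM in libraries 1, 2 and 3. MCM6 had 2.69, 3.15 and 3.05 FPKM. The lowest library of MCM7 was therefore well above the highest of MCM6, and the ratio of MCM7 to MCM6 was 2.86 ± 0.164 (SD, n = 3), from 2.68 to 2.99. On the log2(FPKM + 1) scale this difference was 1.26 (SE 0.088), positive in 3 of 3 libraries, with a limma adjusted p of 4.9e-46. The size of that limma adjusted p depended on the fit. It was 8e-18 with MCM7 as the reference and 3.79e-09 with the variances of both genes added.

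Between them, MCM5 had 6.34, 6.23 and 6.34 FPKM, the narrowest range of the 10 genes. MCM2 had 5.73, 5.42 and 5.71 FPKM. In each library MCM5 was above MCM2, and the values of the 2 genes did not overlap. MCM3 had 5.55, 5.64 and 4.78 FPKM, with library 3 standing below the other 2. MCM4 had 4.89, 4.52 and 5.04 FPKM, and its range overlapped that of MCM3. Apart from these, MCM2 and MCM3 overlapped too, and no other pair of helicase genes did. The order was MCM7, MCM5, MCM2, MCM3, MCM4, MCM6 in library 1, MCM3 stood above MCM2 in library 2, and MCM4 above MCM3 in library 3.

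**Figure D2:**
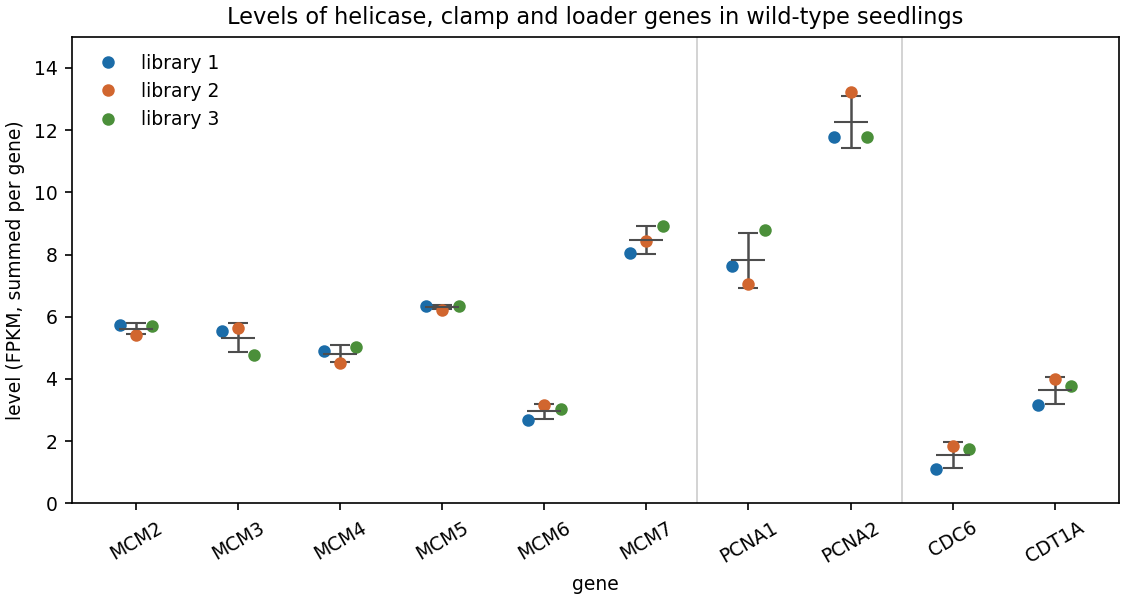
Level of each of the 10 genes in FPKM (y axis, linear, from 0) in libraries 1, 2 and 3 (coloured points), with the mean and SD over the 3 libraries (bars). PCNA2 is highest at 11.8 to 13.2 FPKM, MCM7 leads the helicase genes, MCM6 is the lowest of them, and CDC6 is lowest of all at 1.10 to 1.86 FPKM.

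Expressed as a share of the summed helicase FPKM, an equal split would give 16.7% to each subunit. MCM7 held 25.3% ± 1.08 (SD, n = 3), MCM5 18.8% ± 0.218, MCM2 16.8% ± 0.526, MCM3 15.9% ± 1.53, MCM4 14.4% ± 0.734 and MCM6 8.85% ± 0.691. The sum itself was steady between libraries, at 33.2, 33.4 and 33.8 FPKM. MCM7 was above and MCM6 below an equal share in each library, and the shares of MCM2 and MCM3 lay on both sides of it. These are shares of RNA, and protein was not measured.

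Of the 15 pairs of helicase subunits, 12 differed past an adjusted p of 0.05. Each pair was tested with limma on the difference of log2(FPKM + 1) within a library, in a fit over all 17678 nuclear genes averaging 1 FPKM or more, with the lower-numbered subunit as the reference and Benjamini-Hochberg adjustment over all genes of the fit. Differing from a reference was the rule among genes: 92.6%, 89.6%, 92.4%, 92.9% and 91.5% of all genes did so against MCM2, MCM3, MCM4, MCM5 and MCM6. Read against this background, the count of 12 of 15 is no result about the helicase genes, and the sizes of the differences follow.

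MCM6 and MCM7 differed from every other subunit. The log2 difference of MCM6 was -0.74 from MCM2 (SE 0.075, limma adjusted p = 1.5e-05), -0.67 from MCM3, -0.55 from MCM4 and -0.88 from MCM5, each negative in 3 of 3 libraries with an adjusted p of at most 2.4e-05. In ratios of FPKM, MCM6 stood at 0.529 ± 0.0569 of MCM2 and 0.471 ± 0.0419 of MCM5 (SD, n = 3). The log2 difference of MCM7 was 0.52 from MCM2 (SE 0.054, limma adjusted p = 1.9e-05), 0.58 from MCM3, 0.70 from MCM4 and 0.37 from MCM5, each positive in 3 of 3 libraries with an adjusted p of at most 0.00017. MCM7 stood at 1.51 ± 0.0917 times MCM2 and 1.34 ± 0.0695 times MCM5.

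The middle 4 subunits lay close together. MCM5 exceeded MCM4 by 0.33 (SE 0.063, limma adjusted p = 0.00025), in 3 of 3 libraries. MCM5 also exceeded MCM2 by 0.14 (SE 0.053, limma adjusted p = 0.0308), and MCM4 lay below MCM2 by a log2 difference of -0.19 (SE 0.057, limma adjusted p = 0.0134), both with the same sign in 3 of 3 libraries. The call on MCM5 and MCM2 was lost without any 1 of the libraries, at 0.13 to 0.15, and where the variances of both genes were added, with an adjusted p of 0.0756. The call on MCM4 and MCM2 was lost without library 2 (log2 difference -0.17, adjusted p = 0.0503) and with the largest transcript of a gene in place of the sum (-0.05, adjusted p = 0.478).

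MCM3 could not be placed among these 4 with certainty. Its log2 difference from MCM2 was -0.07 (SE 0.067, limma adjusted p = 0.349), that of MCM4 from MCM3 was -0.12 (SE 0.113, limma adjusted p = 0.315), and that of MCM5 from MCM3 was 0.21 (SE 0.110, limma adjusted p = 0.0603). MCM5 was above MCM3 in 3 of 3 libraries, and with MCM5 as the reference of the fit the adjusted p was 0.0133. Where the variances of both genes were added, the limma adjusted p of this pair was 0.022. The pair stayed uncalled under every other alternative, with 0.141 for the largest transcript of a gene. Without library 3, where MCM3 was lowest, MCM4 lay below MCM3 by a log2 difference of -0.21 with an adjusted p of 0.0343. The 5 other helicase genes had a median absolute log2 difference of 0.19 from MCM2, beside 1.06 over all genes tested, and 29.9% of those genes had a mean between that of MCM6 and that of MCM7.

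**Figure D3:**
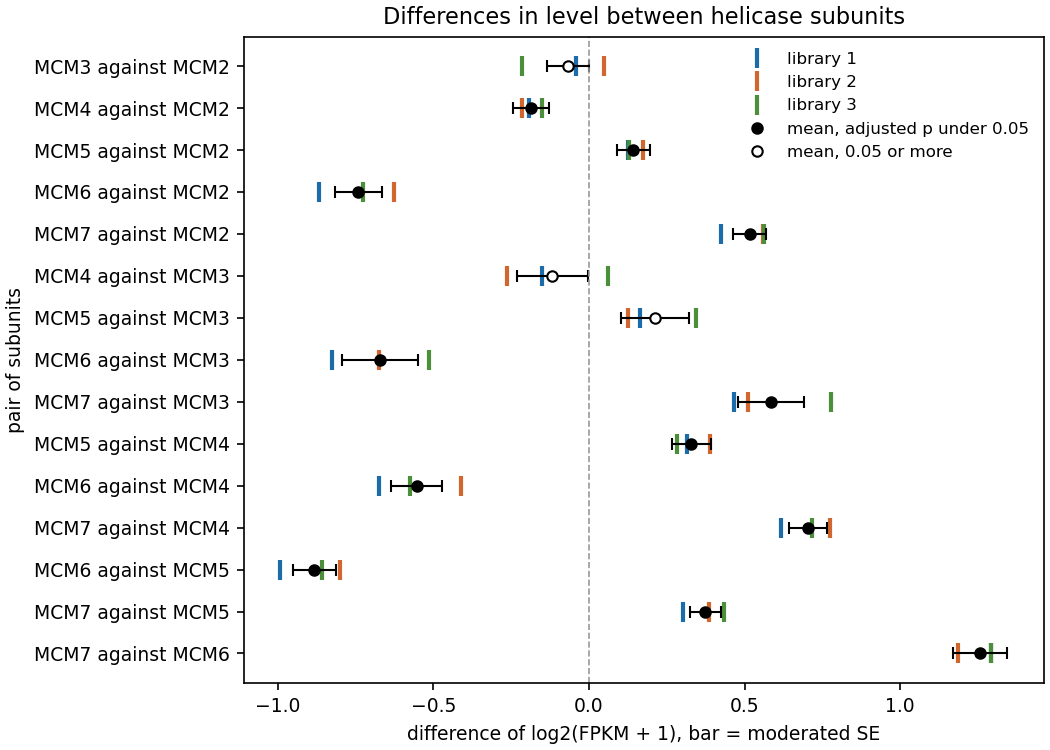
Difference of log2(FPKM + 1) (x axis) for the 15 pairs of helicase subunits (y axis), with coloured ticks for the 3 libraries and a black circle and bar for the mean and its moderated SE; open circles mark pairs with an adjusted p of 0.05 or more. Every pair with MCM6 or MCM7 stands away from 0, while the 3 open circles all involve MCM3.

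PCNA2 was the most abundant of the 10 genes and exceeded PCNA1 in each library. PCNA2 had 11.8, 13.2 and 11.8 FPKM, and PCNA1 had 7.63, 7.04 and 8.78. The groups of values did not overlap. The ratio of PCNA2 to PCNA1 was 1.54, 1.88 and 1.34 in libraries 1, 2 and 3. The log2 difference was 0.59 (SE 0.103, positive in 3 of 3 libraries), with a limma adjusted p of 1.3e-08 in a fit where 88.8% of all genes differed from PCNA1. Library 2 held both the highest PCNA2 and the lowest PCNA1 value, and without it the log2 difference was 0.48.

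The clamp proteins are nearly the same while their genes can be told apart by sequence. Translated from RefSeq, PCNA1 has 263 and PCNA2 264 residues, and 255 of 263 aligned residues are identical (97.0%). Their coding sequences are 85.6% identical, with 114 differing bases. No run of 50 bases of the PCNA1 transcript recurred in the transcript of any other gene. The longest run shared by both coding sequences is 41 bases, at positions 442 to 482 from the start codon, and is shown because it is the stretch where a read has least to separate the paralogs by. It is exonic, is broken by an intron so that it spans 124 bases of the genome in each gene, and stands here in capitals with 6 flanking bases in lower case:
PCNA1, chr1:2263837-2263960, plus strand: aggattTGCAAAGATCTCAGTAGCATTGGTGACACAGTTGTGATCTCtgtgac
PCNA2, chr2:12650546-12650669, minus strand: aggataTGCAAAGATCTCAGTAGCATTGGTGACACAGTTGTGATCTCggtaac

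The level of PCNA2 carries another uncertainty. Its annotated span overlaps that of AT2G29560, the cytosolic enolase gene ENOC on the opposite strand, by 279 bases, and 20.3% of the 50-base windows of its transcript are found there in reverse. ENOC had 11.0, 12.4 and 12.4 FPKM. The libraries keep strand, but whether the authors' counting used it is not given in the sources used here, so the part of ENOC in the PCNA2 value was not tested.

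The loader genes lay below 5 of the 6 helicase genes, with CDT1A above MCM6 and CDC6 below it. CDT1A, which brings the helicase to the origin, had 3.16, 3.99 and 3.77 FPKM. CDC6, an ATPase of the loading reaction, had 1.10, 1.86 and 1.75 FPKM, the lowest level and the widest relative spread of the 10 genes. Library 1 was the lowest for both, and their values did not overlap. The ratio of CDT1A to CDC6 was 2.39 ± 0.423 (SD, n = 3), and the log2 difference was 0.86 (SE 0.195, positive in 3 of 3 libraries), with a limma adjusted p of 1.3e-05 where 86.9% of all genes differed from CDC6. CDT1A was above MCM6 in each library, by a log2 difference of 0.22 (SE 0.098, limma adjusted p = 0.0247), which rose to an adjusted p of 0.0859 with CDT1A as the reference. This pair was picked from the order of means, and 91.5% of all genes differed from MCM6.

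CDC6 was present as 2 transcript forms. Form 2, with 16 exons and 2209 bases, had 1.10, 1.56 and 1.27 FPKM, and form 1, with 15 exons and 1643 bases, was listed at 0 in library 1 and had 0.299 and 0.475 FPKM in libraries 2 and 3. In library 1, where the CDC6 sum was lowest, form 1 was listed at 0, which can be a failed estimate, and form 2 was lowest too. Whether a failed estimate lowered the sum was not tested. Of the 50-base windows of form 2, 4.44% recurred in AT1G07270, whose protein is 75.1% identical, or AT2G29679, an overlapping gene listed at 0. The other genes with more than 1 form were dominated by form 1. It held 85.7% to 95.1% of MCM2, 93.7% to 100% of MCM5 and all of MCM7, while MCM3, MCM4, MCM6, PCNA1, PCNA2 and CDT1A had a single form in the files.

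Relative to MCM2, 8 of the other 9 genes differed past the threshold, beside 92.6% of all genes. Higher were MCM5, MCM7, PCNA1 and PCNA2, 4 of 9 beside 62.2% of all genes, and lower were MCM4, MCM6, CDC6 and CDT1A, 4 of 9 beside 30.4%. PCNA2 exceeded MCM2 by 1.00 (SE 0.058, limma adjusted p = 3.8e-07), a ratio of 2.19 ± 0.221 (SD, n = 3). PCNA1 exceeded it by 0.41 (SE 0.060, limma adjusted p = 0.0002). CDT1A lay below it by a log2 difference of -0.52 (SE 0.079, limma adjusted p = 0.00024), and CDC6 by -1.38 (SE 0.113, limma adjusted p = 3.7e-06), a ratio of 0.280 ± 0.0795.

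In descending order of mean FPKM the 10 genes were PCNA2 (12.3), MCM7 (8.47), PCNA1 (7.82), MCM5 (6.30), MCM2 (5.62), MCM3 (5.32), MCM4 (4.82), CDT1A (3.64), MCM6 (2.96) and CDC6 (1.57). Of the neighbours in this order, MCM7 and PCNA1 overlapped and did not pass the test (log2 difference 0.11, SE 0.103, limma adjusted p = 0.321), and neither did MCM2 and MCM3 or MCM3 and MCM4. PCNA2 and MCM7, PCNA1 and MCM5, MCM4 and CDT1A, and MCM6 and CDC6 each passed the limma test, the largest adjusted p being 0.0128. These pairs, like MCM7 and PCNA1, were picked from the order of means in the same libraries. Of all genes tested, 88.8% differed from PCNA1, 92.4% from MCM4 and 86.9% from CDC6, so passing alone does not set these pairs apart. The share for MCM7, the reference for PCNA2, is not given here. Among nuclear protein-coding genes, those under 1 FPKM included, the 10 ranked from the 37.8th percentile (CDC6) to the 73.5th (PCNA2). All 10 passed the filter of 1 FPKM.

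The libraries differed little in most of these genes, and most in CDC6. The range over the 3 libraries ran from 0.021 (MCM5) to 0.45 (CDC6) on the log2(FPKM + 1) scale, which understates differences of low genes. On this scale 0 of 10 genes exceeded 1, beside 0.651% of all genes tested. The median SD was 0.090 for the 10 genes and 0.086 for all genes tested. Genes with a mean within a factor of 2 gave a closer comparison. The SD of CDC6 was 0.244 beside a median of 0.129 for such genes, and that of PCNA1 0.143 beside 0.086. For 5 of the 10 genes the SD was under the median of such genes. Library 1 was lowest for MCM6, MCM7, CDC6 and CDT1A, library 2 for MCM2, MCM4, MCM5 and PCNA1, and library 3 for MCM3 and PCNA2. The helicase genes did not move together, with 2 of the 6 highest in library 2 and 3 in library 3. The median deviation of the 10 genes was -0.04, 0.03 and 0.04 in libraries 1, 2 and 3, beside 0.01, -0.02 and 0.02 for all genes tested.

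The observed spread was set beside an estimate of counting error. With the denominators estimated from the low values, the genes rested on between 45 (CDC6, library 1) and 437 (MCM7, library 3) fragments. Counting error alone would then give a coefficient of variation of 12.9% for CDC6, where 26.3% was seen, and of 8.26% for PCNA1, where 11.3% was seen. The observed spread exceeded this estimate in all but 3 of the 10 genes: MCM2, MCM4 and MCM5 varied less, at 3.13%, 5.47% and 0.972%. The excess was slight for MCM6 (8.24% seen, 7.97% estimated), MCM7 (5.16% and 4.99%) and PCNA2 (6.82% and 6.42%). These fragment numbers are estimates, and the intervals they imply cover counting error only.

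**Figure D4:**
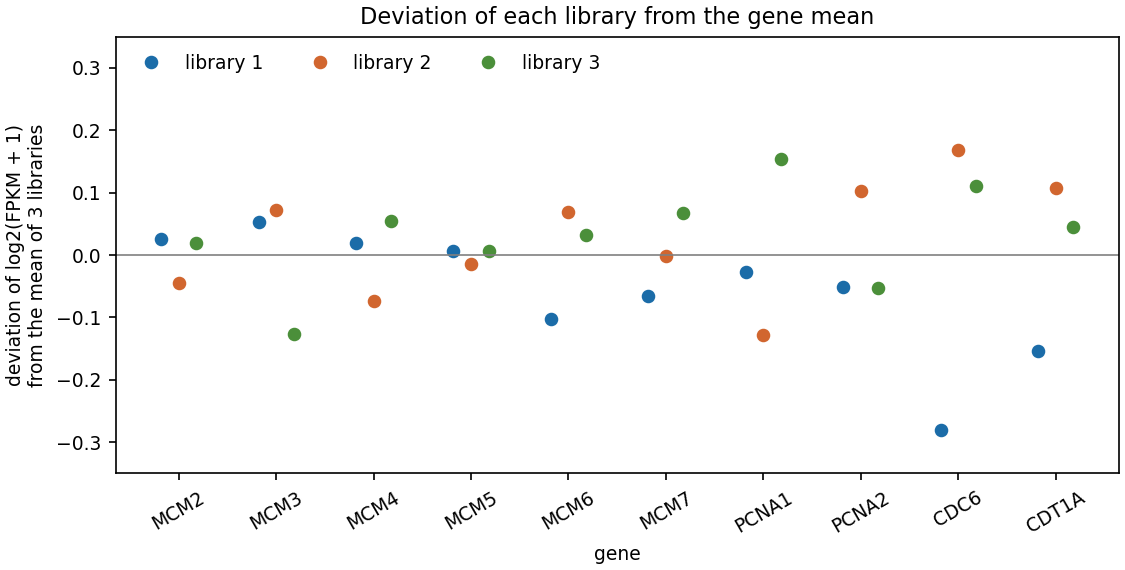
Deviation of log2(FPKM + 1) in each library from the mean of the 3 libraries (y axis) for each of the 10 genes (x axis), with 1 coloured point per library. CDC6 in library 1 lies farthest from its mean, MCM5 has the narrowest range, and no library is above or below for every gene.

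The close relatives of the 10 genes were mostly less abundant than the helicase genes. ETG1, a replisome factor that binds the MCM complex, was nearest, with 5.02, 5.56 and 5.11 FPKM, and did not pass the test against MCM2 (log2 difference -0.09, SE 0.063, limma adjusted p = 0.208). MCM9 and MCM8, relatives of the helicase subunits that act in recombination, had 2.22 ± 0.234 and 1.01 ± 0.0725 FPKM (SD, n = 3) and were lower than MCM2, with log2 differences of -1.04 and -1.72. CDT1B, at 2.24 ± 0.253 FPKM, differed by -1.03, and the limma adjusted p of these 3 genes was 3.3e-06 or less. Of the 2 remaining relatives, the gene entered as CDC6B (AT1G07270) had 0.338, 0.507 and 0.509 FPKM and MCM10, which helps to start the helicase, 0.780, 0.772 and 0.793, both under the filter. In each library the gene entered as CDC6B was below CDC6 and CDT1B below CDT1A.

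Among 73 other genes of replication and division, 17 were higher than MCM2, 45 were lower, 5 did not pass and 6 were under 1 FPKM. Of all genes tested, 62.2% were higher than MCM2 and 30.4% lower, and each count by list below is to be read beside these shares. The genes that act beside the helicase at the origin were lower. Of the 7 genes of the origin recognition complex, 5 were lower than MCM2 and 2 were under 1 FPKM, from ORC5 at 4.52 ± 0.420 FPKM (SD, n = 3) down to ORC1A at 0.327 ± 0.0282. Of the 7 genes of helicase activation (CDC45, GINS and MCM10), 6 were lower and 1 was under 1 FPKM, with PSF2 of the GINS complex highest at 3.33 ± 0.214 FPKM. PSF3 (AT1G19080, TTN10 in the gene table) and its copy at AT3G55490 had 3.13 and 2.70 FPKM, and how reads were divided between them is not known. The median of all tested nuclear genes was 9.16 FPKM and their median log2 difference from MCM2 was 0.61.

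Of 11 polymerase genes, 1 was higher than MCM2, 8 were lower, 1 did not pass and 1 was under 1 FPKM, beside 62.2% higher and 30.4% lower among all genes. POLD4, entered as the small subunit of polymerase delta, had 26.4 ± 4.44 FPKM, and POL2B (AT2G27120, TIL2 in the gene table) had 0.00771 FPKM in library 3 and was listed at 0 in the other libraries. Of the 6 clamp loader genes, which open and close the PCNA ring, 3 were higher than MCM2, 2 were lower and 1 did not pass. The gene entered as RFC3 (AT5G27740, EMB2775 in the table) was highest at 12.9 ± 0.404 FPKM, and CTF18, the large subunit of an alternative loader, was lowest at 1.41 ± 0.191. The single-strand binding RPA genes numbered 9, with 1 higher, 7 lower and 1 not passing, from RPA3B (AT4G18590) at 20.6 ± 0.615 to RPA1E (AT4G19130) at 1.27 ± 0.0611.

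All 5 genes of deoxynucleotide supply were higher than MCM2, as were 62.2% of all genes tested, so the count alone does not set the list apart. TSO2, a small subunit of ribonucleotide reductase, led with 36.9 ± 3.03 FPKM (SD, n = 3) and exceeded MCM2 by 2.51 (SE 0.045, limma adjusted p = 1.3e-10), and the thymidine kinase gene TK1A was lowest at 8.55 ± 0.981. Of the genes for Okazaki fragments, the ligase LIG1 was higher at 7.95 ± 0.955 FPKM and the nuclease FEN1 (AT5G26680), at 5.11 ± 0.786, did not pass. Among proteins of chromatin that meet PCNA at the fork, MSI1 of the chromatin assembly factor was higher, at 13.8 ± 0.602 FPKM, 3 were lower and ATXR6, a histone methyltransferase, was under 1 FPKM at 0.934 ± 0.295.

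Of the 9 genes of the E2F and RBR pathway, 2 were higher than MCM2 and 7 were lower, beside 62.2% and 30.4% of all genes. RBR1 was highest, at 14.8 ± 0.408 FPKM (SD, n = 3), and the atypical E2F gene DEL1 lowest, at 1.27 ± 0.309. Mitotic genes were found on both sides, 3 higher and 4 lower, from KN (AT1G08560, also SYP111), a syntaxin of the cell plate, at 23.4 ± 1.35 FPKM to the cyclin CYCB1;3 at 2.61 ± 0.542. By list, the median ran from 1.61 FPKM for the close relatives and 2.05 for the origin recognition complex to 12.9 for deoxynucleotide supply.

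**Figure D5:**
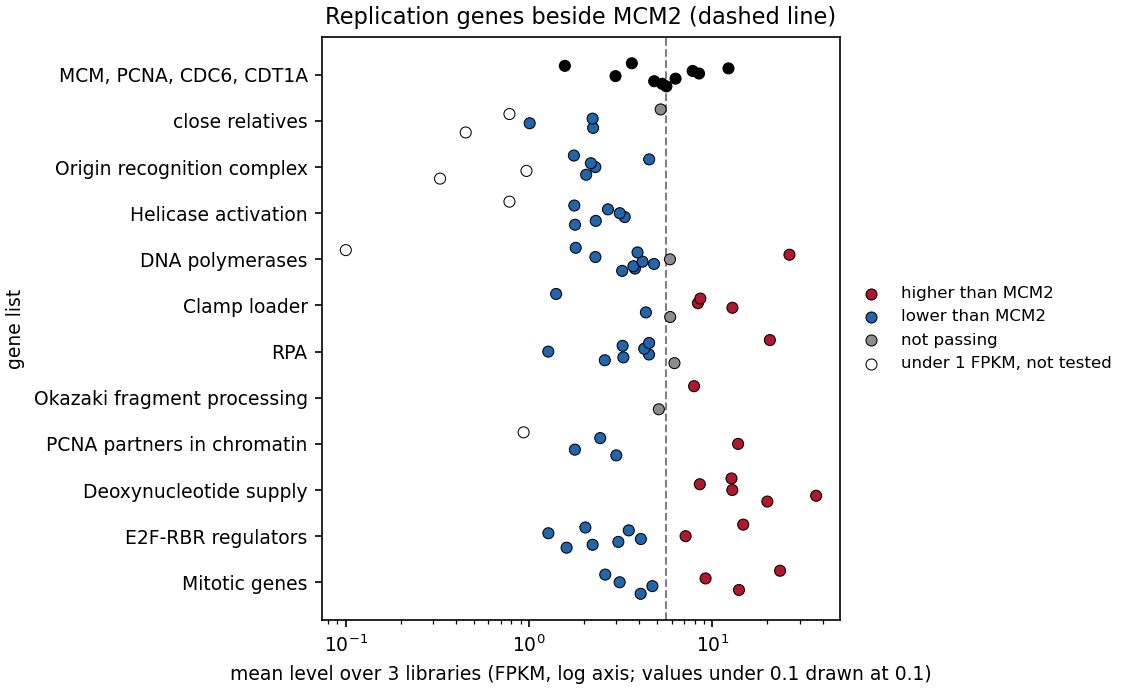
Mean FPKM over 3 libraries (x axis, log scale) of genes of replication and division in the lists named on the y axis, coloured by the test against MCM2, whose mean of 5.62 FPKM is the dashed line; black points are the 10 genes described here. Origin recognition and helicase activation genes lie left of the line and all 5 genes of deoxynucleotide supply right of it.

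In TAIR10.1, 5 of the 10 genes lie on chromosome 2. MCM5 (AT2G07690; chr2:3522984-3527500) and MCM4 (AT2G16440; chr2:7126279-7130729) have 18 exons each on the minus strand. PCNA2 (AT2G29570; chr2:12649906-12651753) has 4 exons on the minus strand, and CDC6 (AT2G29680; chr2:12689171-12693121) follows on the plus strand, with 37.4 kb between them. CDT1A (AT2G31270; chr2:13328862-13331831, plus strand) has 7 exons. MCM2 (AT1G44900; chr1:16970214-16974753) has 16 exons and PCNA1 (AT1G07370; chr1:2263037-2264553) 4, both on the plus strand. MCM7 (AT4G02060, PRL in the table; chr4:900636-905591, plus strand) has 15 exons in form 1. MCM6 (AT5G44635; chr5:18006212-18010667, 18 exons) and MCM3 (AT5G46280; chr5:18769649-18773706, 15 exons) lie on the minus strand. The span of MCM7 overlaps AT4G02050, a sugar transporter gene on the opposite strand, by 437 bases, but no 50-base window of form 1 recurred in any other transcript. No such window recurred for MCM2, MCM3, MCM4, MCM5, MCM6 or CDT1A either, and between helicase subunits protein identity was 32.6% to 38.7% over aligned residues.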

How the data were processed

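RNA of 3 wild-type seedling libraries was analysed. Each deposited file lists 36172 transcripts with a value that its header does not name. It was read as FPKM computed by the authors: TopHat2 2.0.9, Cufflinks 2.1.1 and TAIR10 appear in the submitters' processing notes, and values are not whole and sum to 2064646, 2000114 and 1957870. For annotation, strand setting, filters and scaling, the answer is not given in the sources used here.

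Transcripts with a TAIR locus (35337) were summed per gene. Ratios to a reference gene on log2(FPKM + 1) were fitted with limma 3.58.1 in R 4.3.3 (intercept model, empirical Bayes with trend) over nuclear genes averaging 1 FPKM or more, with Benjamini-Hochberg adjustment over all genes of a fit. Such folds understate differences of low genes. Each fit shares the noise of its reference, so very small p-values say little beyond direction, and an exact sign-flip permutation test over 3 libraries cannot go below p = 0.25. The fit was tested on simulated data. Names, coordinates and sequences came from RefSeq TAIR10.1, whose name differs from the authors' build. A planned search for protein motifs was not run.

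The members and lists were chosen with earlier results of these data known. The text names all 10 members, their 6 close relatives, and the highest and lowest gene of each list, others being named after their values were seen.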

Additional observations from a re-analysis of the deposited data

How the results depend on the processing

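No paired analysis was possible because the 3 libraries form 1 group. Alternatives were a pseudocount of 0.1, no filter on low values, the variances of both genes, the largest transcript of a gene, scaling by the median ratio, and leaving out each library. Exchanging the reference gene, moving the promoter window to the most abundant transcript and shortening the motif were added after seeing the data. Without 1 library, 10 to 12 helicase pairs, 6 to 7 of the 9 other genes against MCM2 and 61 to 62 pathway genes were called (17 to 18 higher, 44 to 45 lower), and the log2 difference was 0.476 to 0.695 for PCNA2 against PCNA1 and 0.799 to 0.895 for CDT1A against CDC6. These results and the spread between libraries kept their side of the threshold, or came within 1.5 times, under every alternative run for them. With all libraries, 92.6% of all genes differed from MCM2, so a steady count of calls is no result about these genes. The shares of all genes without 1 library are not given here. The count of genes with a motif match went from 5 to 8 without the leading T, while the share of all nuclear protein-coding genes went from 1.76% to 3.63%. Of 167 single comparisons under an alternative, 156 kept sign and side, 6 lost their call, 3 gained one and 2 reversed: MCM3 against MCM2, not called at the outset, was 0.064 with the largest transcript and ranged from -0.127 to 0.004 without 1 library, with 0.004 without library 3. The cause was not tested. The genes rested on 45 to 437 estimated fragments in a library, which limits how small a difference can be seen.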

Other observations

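The 8-letter E2F-type words were also counted in the gene-start windows of the other replication lists, as a description with no test. They were found in 4 of 7 genes of the origin recognition complex, 5 of 11 polymerase genes, 3 of 9 RPA genes, 3 of 5 chromatin genes that meet PCNA, 1 of 7 genes of helicase activation, 1 of 2 genes for Okazaki fragments, 1 of 6 clamp loader genes and 1 of 5 genes of deoxynucleotide supply, beside 1.76% of all nuclear protein-coding genes. Of the mitotic genes 0 of 7 held one, and of the E2F and RBR genes 1 of 9. Of the close relatives, MCM8 and the gene entered as CDC6B held TTTCCCGC, 15 and 14 bases before the start. Of all 27443 windows, 20 held more than 1 such word (0.0729%), among them those of 3 polymerase genes, 1 gene of helicase activation and 1 chromatin gene.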
